A study of Mus musculus with 6 samples.

Results

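ATDC5, a mouse chondrogenic cell line, was cultured with IL-1β at 10 ng/mL (IL group) or with the same IL-1β and NP-G2-044, a small-molecule inhibitor of the actin-bundling protein fascin, at 10 μM (ILN group). RNA was sequenced from 3 libraries of each group. The genes described here are those of the lysosome. They were picked by gene symbol, as every symbol that begins with Atp6v0 or Atp6v1 (the V-ATPase subunits), Atp6ap1, Atp6ap2 and a list of 53 lysosomal hydrolases, membrane proteins, soluble helper proteins and regulators, and 76 of the 16880 genes in the table were found, of which 31 encode hydrolases, 11 membrane proteins, 24 the proton pump, 3 soluble helpers and 7 regulators. The list was selected on the same IL against ILN values that are given below, so the changes of its members are a description and nothing is inferred from their direction. Ctsc, also on the list, was not analysed here.

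IL-1β is an inflammatory cytokine, and both groups received it, so the comparison is of NP-G2-044 on top of IL-1β and holds no cells without the cytokine. The study's methods give the treatment time as 24 h and describe the cells as chondrocytes with 3 biological replicates a group, whereas the sample labels name the ATDC5 line and do not say whether the libraries came from separate cultures. P-values therefore measure the spread between these libraries, which may be technical. The treatment field of the ILN samples also spells the compound NP-G2-047, while the titles and the protocol give NP-G2-044. Of 8 cartilage markers looked up, 5 were in the table. Col11a1 had 1 read in IL and 0 in ILN, Matn3 had 0 and 1, and Comp had 6 and 7. Col2a1, the main collagen of cartilage, was close to absent, at 0.217 ± 0.0208 TPM (a level that accounts for gene length and library size, given as mean ± SD, n = 3) in IL and 0.04 ± 0.02 in ILN, and Sox9, the transcription factor that drives chondrogenesis, was at 6.44 ± 0.675 and 11.4 ± 0.0569. Total counts were 16615824 to 16878164 per IL library and 17529844 to 17735860 per ILN library. Variation between libraries of a group was small, with a biological coefficient of variation of 2.33%, and small fold changes could therefore pass the test.

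Lysosomes are acidic organelles in which proteins, glycans and lipids delivered by endocytosis or autophagy are broken down. The V-ATPase pumps protons into the lumen, where soluble hydrolases work at low pH. Its peripheral V1 domain hydrolyses ATP and its membrane V0 domain carries the protons. Transporters in the limiting membrane export the products. Many of these genes carry a short E-box-like promoter element bound by the MiT/TFE transcription factors (TFEB, TFE3 and MITF), whose entry into the nucleus depends on phosphorylation by mTORC1 and on the Rag GTPases and folliculin at the lysosome surface.

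Of the 76 genes, 67 had enough reads to be tested and 9 did not. In the ILN libraries 50 of the 67 were higher and 15 were lower at an adjusted p below 0.05 (edgeR's quasi-likelihood test), and 2, Cln3 and Glb1, did not pass. Across all 11983 genes tested, 40.2% were higher and 39.8% were lower by the same rule, so a call alone was common in this comparison. With a log2 fold change of at least 1 in size required as well, 15 members were higher and 2 lower, against 6.48% and 10.1% of all genes tested. TPM values of the groups did not overlap for 48 members that were higher and 15 that were lower, where 79.4% of all genes tested had groups that did not overlap in one direction or the other. The median log2 fold change was 0.53 over the 67 members and 0.0018 over all genes tested.

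The classes moved by different amounts. All but one of the 10 tested membrane proteins were higher, with a median log2 fold change of 0.78. Of the 18 tested pump genes, 17 were higher and 1 was lower, with a median of 0.69. Hydrolases were divided, with 16 of 29 higher, 12 lower and 1 not called, and a median of 0.15. Over all genes tested, 40.2% were higher and 39.8% lower, and each class count here and below stands beside those shares. In RNA from whole cultures, fewer cells of a kind and less RNA per cell cannot be told apart. The classes were not tested against each other.

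**Figure D1:**
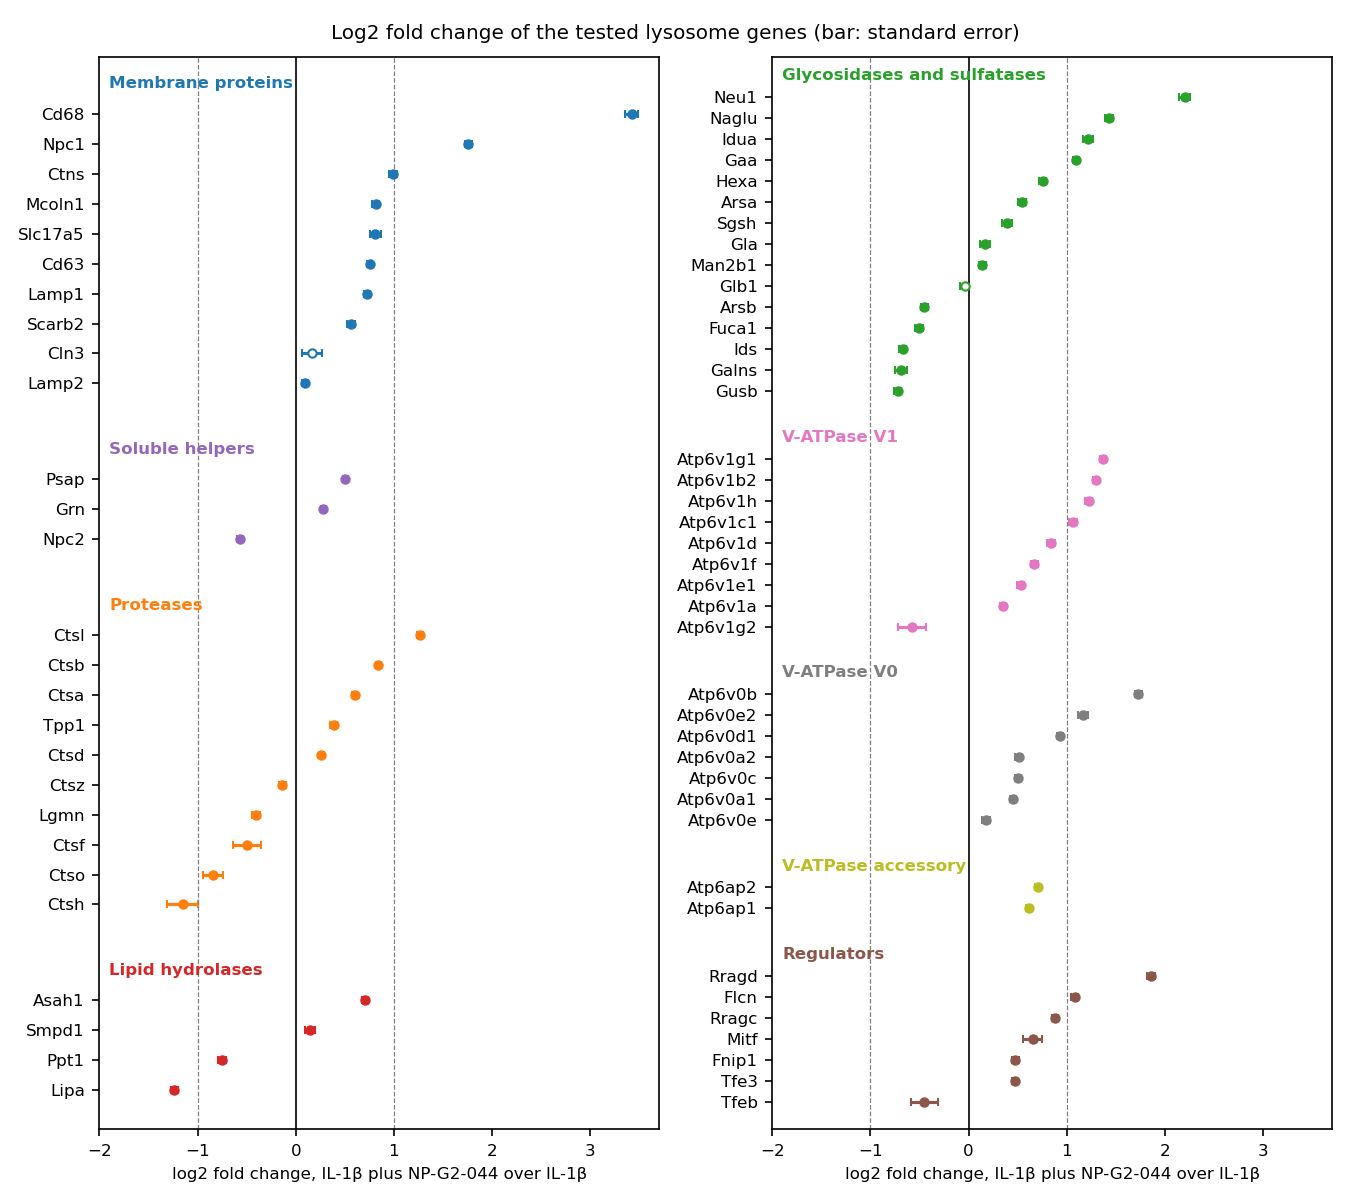
Log2 fold change, ILN against IL, of the 67 tested lysosomal genes, 1 point per gene grouped by class, with bars of 1 standard error from the edgeR fit and dashed lines at -1 and 1. Open points did not pass an adjusted p of 0.05. The membrane proteins and pump subunits lie almost all above 0, with Cd68 highest at 3.42, while the hydrolases spread from Lipa at -1.24 to Neu1 at 2.20.

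Promoter windows from RefSeq (GRCm38.p6, 250 bases before to 50 bases after a start site that RefSeq gives for the gene) were available for 65 of the 76 members, and were searched on both strands for the E-box CACGTG and for its longer form TCACGTGA, which contains it and has the core of the coordinated lysosomal expression and regulation (CLEAR) element. Some genes have several windows, and a gene was counted when any of them held the letters. Of the 57 tested members with a window, 20 held CACGTG (35.1%), against 1134 of the 9635 tested genes with a window (11.8%). The longer form was in 8 of the 57 (14.0%) and in 216 of the 9635 (2.24%). By class, CACGTG was in 11 of 25 hydrolases, 3 of 9 membrane proteins, 4 of 13 pump genes, 2 of 7 regulators and 0 of 3 helper proteins. The stretches below are shown because they hold the element in genes on which the results turn. Capitals mark the matched letters, each stretch reads 5′ to 3′ on the strand of its gene, and all end at or before the RefSeq start site of their window. By the GENCODE annotation of the same build, the stretches of Atp6v1a and Lgmn lie in introns of their genes, 294 and 652 bases inside the outermost annotated start, the last 4 bases of that of Atp6v0b are exonic, and the rest lie outside their genes.
Lamp1, chr8:13159080-13159160, plus strand: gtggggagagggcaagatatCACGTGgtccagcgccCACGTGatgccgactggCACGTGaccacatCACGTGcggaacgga
Atp6v0b, chr4:117887330-117887385, minus strand: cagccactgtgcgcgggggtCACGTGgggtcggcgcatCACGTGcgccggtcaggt
Atp6v1a, chr16:44139364-44139411, minus strand: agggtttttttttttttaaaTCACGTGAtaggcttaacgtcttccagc
Gla, chrX:134601173-134601253, minus strand: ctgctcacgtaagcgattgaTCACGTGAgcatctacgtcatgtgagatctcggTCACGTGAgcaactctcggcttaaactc
Gaa, chr11:119267803-119267848, plus strand: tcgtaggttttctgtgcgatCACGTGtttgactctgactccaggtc
Rragc, chr4:123917301-123917346, plus strand: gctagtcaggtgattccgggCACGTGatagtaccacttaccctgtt
Lgmn, chr12:102439116-102439161, minus strand: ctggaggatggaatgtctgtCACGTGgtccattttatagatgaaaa
Ctsf, chr19:4855066-4855111, plus strand: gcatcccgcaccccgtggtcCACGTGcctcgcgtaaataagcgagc

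Lamp1, for the most abundant glycoprotein family of the lysosomal membrane, had 4 copies of CACGTG, the nearest beginning 15 bases before the start site and the farthest 61. Atp6v0b had copies 18 and 36 bases before it. Lgmn and Ctsf, the last shown, held the element although both genes were lower in ILN. The 20 with CACGTG had a median log2 fold change of 0.51 and the 37 without it 0.50. Of the 20, 16 were higher (80.0%), 2 lower and 2 not called, and of the 37, 26 were higher (70.3%) and 11 lower. Among all tested genes, 51.9% of those with CACGTG and 39.2% of those without it were higher. The 8 members with the longer form had a median of 0.31, with 7 higher and 1 not called. The 49 without the longer form had a median of 0.51, with 35 higher, 13 lower and 1 not called. For all tested genes, 55.1% of those with the longer form and 40.3% of those without it were higher. The windows of Cd68, Neu1, Idua, Ctns, Rragd and Flcn held neither form. Windows of Npc1, Ctsh, Atp6v1b2, Atp6v1c1, Atp6v1g1 and Atp6v1h were not in the table. A match is a string of letters and was not tested as a binding site.

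Membrane proteins were led by Cd68 (chromosome 11, 69664213 to 69666170, GRCm38), a heavily glycosylated relative of the LAMP proteins. It stood at 12.5, 14.0 and 10.6 TPM in the IL libraries and at 123.9, 131.2 and 134.7 TPM in the ILN libraries. The groups lay far apart, a 10.7-fold difference (log2 fold change 3.42, standard error 0.066). CD68 protein is best known as a macrophage marker. Of the 8 macrophage markers examined, 6 were in the table and Ptprc, which defines white blood cells, was listed at 0 TPM in every library. Their summed level was 10.9 to 14.0 TPM in IL and 4.71 to 5.57 TPM in ILN, nearly all of it Cd14. The sum thus follows Cd14 alone, and the source of the Cd68 transcripts was not tested. Summed levels of the 4 listed osteoclast markers were 0.31 to 0.54 TPM in IL and 0.10 to 0.35 in ILN.

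Npc1, the membrane protein that moves cholesterol out of the lysosome, was at 18.2, 20.1 and 18.6 TPM in IL and 63.6, 62.0 and 61.7 TPM in ILN. It was 3.38-fold higher (log2 1.76, SE 0.036), with no overlap. Exons of Npc1 share 511 bases with Rmc1 on the opposite strand, which went from 18.7 to 26.3 TPM, and no source used here says if the counts were strand-specific. Ctns, the cystine exporter, was at 27.0, 27.8 and 27.4 TPM against 53.1, 54.5 and 51.8 TPM, and at a log2 fold change of 0.99 it lay just under the cutoff of 1. The calcium channel gene Mcoln1 and the sialic acid exporter gene Slc17a5 both had a log2 fold change of 0.81, from 76.2 ± 1.85 to 131.3 ± 2.28 TPM and from 15.7 ± 1.26 to 26.9 ± 0.745 TPM.

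The most abundant gene of all was Cd63, a tetraspanin of late endosomes and lysosomes. Its TPM values were 1259, 1289 and 1253 in IL and 2085, 2087 and 2137 in ILN, a 1.69-fold difference. Cd63 has 1 named pseudogene in the annotation. The LAMP genes, which code for the main glycoproteins of the lysosomal membrane, did not move alike. Lamp1 went from 540.9 ± 31.2 to 875.0 ± 12.1 TPM (log2 0.73, SE 0.028), while Lamp2 went from 356.8 ± 1.80 to 378.8 ± 13.7 TPM (log2 0.09, SE 0.027), the smallest change among the membrane proteins that passed the test. Scarb2, the receptor that carries glucocerebrosidase to lysosomes, was 1.48-fold higher. Cln3, mutated in juvenile Batten disease, was at 7.76, 7.20 and 7.27 TPM in IL and 8.23, 6.35 and 8.66 TPM in ILN. Its groups overlapped, with an adjusted p of 0.144 from edgeR. Its exons share 442 bases with Apobr on the opposite strand, which went from 0.647 to 10.8 TPM. Gpnmb, a glycoprotein abundant in osteoclasts and pigment cells, had 11 reads in the IL libraries together and 15 in ILN and was not tested.

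**Figure D2:**
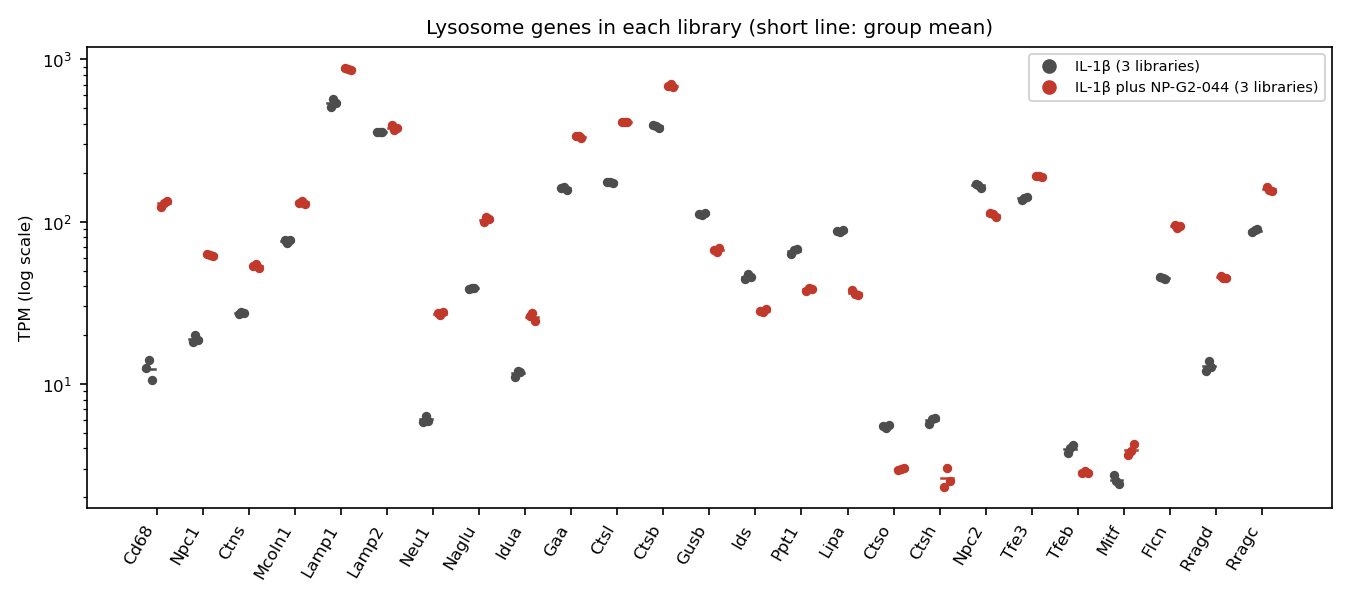
TPM on a log axis in each of the 6 libraries for 25 hydrolases, membrane proteins, helper proteins and regulators, with 3 points for IL and 3 for ILN per gene and a line at each group mean. Cd68, Neu1, Npc1 and Rragd lie wholly higher in ILN, and Lipa and Ctsh wholly lower.

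Of the 10 protease genes tested, 5 were higher and 5 lower. Ctsz, at 169.1 TPM in IL just below Ctsl at 174.9 TPM, fell. The 4 with the highest levels in IL, Ctsb, Ctsd, Ctsa and Ctsl, all rose. Cathepsin L, a cysteine protease that degrades collagen and elastin among many substrates, was the leading one, with Ctsl at 176.7, 175.3 and 172.6 TPM in IL and 412.3, 413.7 and 411.7 TPM in ILN. This was a 2.41-fold difference (log2 1.27, SE 0.030). Exons of Ctsl share 1742 bases with the opposite-strand gene Gm47123 and 395 with Gm49230 on the same strand. Ctsb, for the cysteine protease cathepsin B, was the most abundant hydrolase gene, at 396.8, 387.2 and 378.2 TPM against 687.7, 702.4 and 678.7 TPM (1.79-fold). Ctsa, a carboxypeptidase that also holds neuraminidase and β-galactosidase in a stable complex, was 1.52-fold higher, from 267.5 ± 0.935 to 397.2 ± 2.73 TPM. On the opposite strand, exons of Ctsa share 495 bases with Pltp, which went from 13.6 to 30.2 TPM, and 324 with Neurl2. Those of Ctsb share 774 with Fdft1 on the opposite strand, which went from 43.5 to 47.1 TPM. Tpp1, a tripeptidyl peptidase, and Ctsd, the main aspartic protease, rose by 0.39 and 0.26 on the log2 scale. Exons of Ctsd share 808 bases with Gm49369 on the same strand.

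The proteases that fell included the rarest ones tested. Ctsh, an aminopeptidase (chromosome 9, 90054267 to 90076095), was at 5.67, 6.11 and 6.15 TPM in IL and 2.31, 3.04 and 2.52 TPM in ILN, 2.22-fold lower (log2 -1.15, SE 0.156). Ctso was at 5.48, 5.34 and 5.61 TPM against 2.93, 3.0 and 3.05 TPM (log2 -0.84). Ctsf was at 5.40, 4.13 and 5.39 TPM against 4.07, 3.23 and 3.18 TPM (log2 -0.49, SE 0.143), and its lowest IL library was only just above its highest ILN library. Lgmn, the asparagine-specific protease legumain, was 1.32-fold lower, from 61.0 ± 1.25 to 45.2 ± 2.21 TPM, and Ctsz 1.10-fold lower, from 169.1 ± 4.27 to 150.7 ± 1.41 TPM. Cathepsin K and cathepsin S were hardly expressed. Ctsk, the collagenase of osteoclasts, had 20 reads in IL and 10 in ILN, a ratio scaled to the library totals of 2.10 whose exact 95% interval of 0.940 to 5.04 includes no difference and covers counting error only. Ctss had 1 read in all, in an IL library.

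The 15 glycan-degrading genes, all tested, gave 9 higher, 5 lower and 1 not called. Neu1 (chromosome 17, 34931253 to 34937297), the lysosomal sialidase, changed most, from 5.86, 6.36 and 5.91 TPM in IL to 27.3, 26.5 and 27.6 TPM in ILN. The difference was 4.60-fold (log2 2.20, SE 0.057). Gaa, which breaks down glycogen and was the most abundant of the 15, rose 2.13-fold from 160.2 ± 2.99 to 333.8 ± 4.98 TPM. Hexa, the α subunit of β-hexosaminidase A, was 1.69-fold higher, and Arsa, the sulfatidase, 1.46-fold. Gla, α-galactosidase A, was at 21.9, 20.1 and 19.2 TPM in IL and 22.1, 23.3 and 21.7 TPM in ILN. Its TPM groups overlapped. The log2 fold change of Gla was 0.16, with an adjusted p of 0.00523 in edgeR and 0.0605 in DESeq2. Man2b1, a mannosidase, was 1.10-fold higher. Fuca1, the fucosidase, was 1.42-fold lower, from 57.3 ± 2.46 to 39.5 ± 0.793 TPM.

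Several of these enzymes remove glycosaminoglycans, the sulfated chains of cartilage proteoglycans, 1 sugar or sulfate at a time. Among the 5 members that act on heparan sulfate, 3 were higher and 2 lower. Naglu, the α-N-acetylglucosaminidase (chromosome 11, 101070090 to 101077672), went from 38.4, 39.3 and 38.9 TPM to 99.2, 106.4 and 103.1 TPM (log2 1.43, SE 0.038). Idua, the α-L-iduronidase, went from 11.1, 12.03 and 11.8 TPM to 26.1, 27.4 and 24.3 TPM (log2 1.22), and its exons share 124 bases with Dgkq and 141 with Slc26a1. Sgsh, the heparan N-sulfatase, was 1.31-fold higher. In the opposite direction, Ids, the iduronate sulfatase that acts on the chain just before Idua, was at 44.1, 47.7 and 45.5 TPM in IL and 28.2, 27.6 and 28.8 TPM in ILN, 1.59-fold lower. Gusb, the β-glucuronidase, was at 111.9, 109.7 and 113.2 TPM in IL and 66.8, 65.4 and 68.8 TPM in ILN, 1.65-fold lower. Successive enzymes of 1 breakdown route thus differed in direction.

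Idua, Ids and Gusb also act on dermatan or chondroitin sulfate. Hexa, 1.69-fold higher as given above, was grouped with them and also with the keratan sulfate enzymes. Arsb, the N-acetylgalactosamine 4-sulfatase, was 1.37-fold lower, from 49.9 ± 0.903 to 35.7 ± 0.360 TPM, and shares 1948 bases of exon with Gm26527. Galns, which removes sulfate from keratan sulfate and chondroitin 6-sulfate, was at 23.2, 23.1 and 23.3 TPM against 14.5, 13.9 and 13.4 TPM, 1.61-fold lower. Glb1, the β-galactosidase used on keratan sulfate, was at 35.3, 32.5 and 32.6 TPM against 29.9, 32.7 and 32.9 TPM. Its groups overlapped (log2 -0.04, SE 0.051, adjusted p 0.445 from edgeR). Exons of Glb1 share 165 bases with Tmppe on the same strand, which went from 6.05 to 3.47 TPM. These groupings by substrate were drawn after the values had been seen.

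Lipid hydrolases were 2 higher and 2 lower. Lipa (chromosome 19, 34492316 to 34527474), the acid lipase that frees cholesterol and fatty acids from lipoprotein lipids, fell most of all tested members, from 87.6, 86.6 and 88.4 TPM in IL to 38.0, 35.6 and 35.4 TPM in ILN. It was 2.36-fold lower (log2 -1.24, SE 0.036). Ppt1, which removes palmitate from proteins, was at 63.1, 66.8 and 68.3 TPM against 37.6, 39.1 and 38.7 TPM, 1.68-fold lower. Asah1, acid ceramidase, was at 133.7, 137.4 and 137.8 TPM against 214.3, 217.7 and 221.2 TPM, 1.64-fold higher. Smpd1, acid sphingomyelinase, was called higher at a log2 fold change of 0.15 with overlapping TPM groups, 28.4 ± 0.890 in IL and 30.8 ± 1.96 in ILN, and the log2 fold change of Smpd1 had an adjusted p of 0.00765 in edgeR and 0.0758 in DESeq2.

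The soluble helper proteins, which are not enzymes, also differed in direction. Psap, the precursor of the saposins that present sphingolipids to their hydrolases, went from 872.4, 896.5 and 835.3 TPM to 1220, 1199 and 1201 TPM (1.42-fold higher). Grn, progranulin, was 1.22-fold higher. Npc2, which hands cholesterol to Npc1, was at 170.3, 169.3 and 161.6 TPM in IL and 112.6, 111.4 and 107.0 TPM in ILN, 1.48-fold lower. Among these genes of cholesterol release and export, Lipa and Npc2 thus fell and Npc1 rose.

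In the V-ATPase, 8 of the 9 tested V1 genes were higher (median log2 fold change 0.84), as were all 7 tested V0 genes (0.51) and both accessory genes. The V1 gene with the largest change was Atp6v1g1, for a subunit of the peripheral stalk (chromosome 4, 63544765 to 63550701), at 308.6, 303.0 and 297.2 TPM in IL and 777.2, 744.9 and 778.6 TPM in ILN. It was the most abundant V1 gene over all libraries, although in IL Atp6v1f was higher at 350.7 ± 2.93 TPM, and it was 2.58-fold higher in ILN (log2 1.37, SE 0.030). Atp6v1b2, for the ATP-binding but non-catalytic B subunit, was 2.45-fold higher, from 91.4 ± 2.85 to 218.9 ± 3.82 TPM. Atp6v1h, a subunit that couples V1 to V0 and restrains free V1, was 2.33-fold higher, from 65.9 ± 0.977 to 150.7 ± 4.87 TPM. Atp6v1c1, which links the stalks, was 2.09-fold higher, from 51.9 ± 1.06 to 106.2 ± 2.88 TPM. Atp6v1d, of the central rotor, Atp6v1f, also of the rotor, and the stalk gene Atp6v1e1 rose by 0.84, 0.67 and 0.53 on the log2 scale.

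Atp6v1a, for the catalytic A subunit that alternates with B around the head of V1, was at 62.5, 65.2 and 65.3 TPM in IL and 82.9, 78.1 and 79.6 TPM in ILN. Its 1.28-fold difference (log2 0.35, SE 0.031) was the smallest of the V1 genes that rose. The A and B genes, whose proteins occur in equal number in the pump, thus had different fold changes. Only Atp6v1g2, for a G subunit best known from brain, fell in V1. It was at 6.03, 5.73 and 6.32 TPM in IL and 3.80, 4.03 and 4.11 TPM in ILN (log2 -0.58, SE 0.144), and it shares 144 bases of exon with Nfkbil1, which went from 24.3 to 42.7 TPM.

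**Figure D3:**
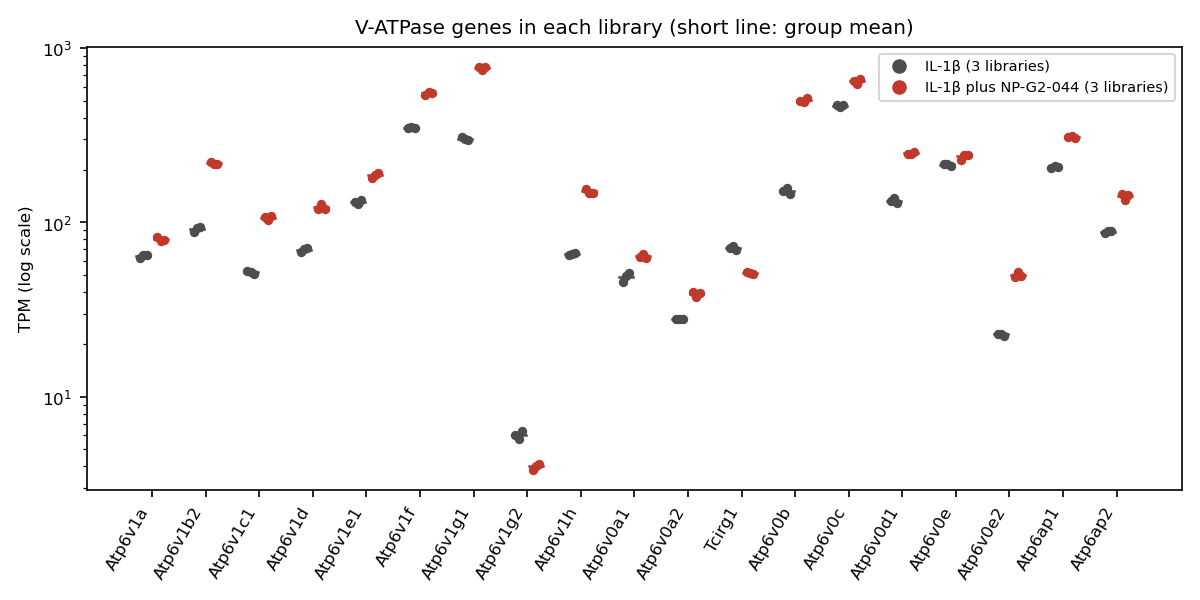
TPM on a log axis in each of the 6 libraries for the V1, V0 and accessory genes of the V-ATPase and for Tcirg1, with 3 points for IL and 3 for ILN per gene and a line at each group mean. Atp6v1g1 and Atp6v0b show the widest gaps among the abundant subunits, and Atp6v1g2 and Tcirg1 lie lower in ILN.

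Within V0, Atp6v0b, for the c″ subunit of the proton-carrying ring (chromosome 4, 117884330 to 117887333), went from 150.7, 158.5 and 145.7 TPM to 499.2, 490.8 and 516.7 TPM. This was 3.31-fold (log2 1.73, SE 0.035), the largest change in the pump. The window shown above for Atp6v0b held the E-box at 2 places, and its exons share 243 bases with Gm12841. Atp6v0c, for the c subunit that makes up most of the same ring, was the most abundant V0 gene and rose 1.41-fold, from 470.0, 461.0 and 474.9 TPM to 649.7, 626.9 and 670.0 TPM. It has 2 named pseudogenes in the annotation, to which reads could be split. Atp6v0d1, which joins the ring to the rotor, was 1.90-fold higher, from 133.5 ± 5.06 to 248.8 ± 3.14 TPM. The accessory genes Atp6ap1 and Atp6ap2, whose proteins are needed for assembly of the pump, were 1.53-fold and 1.63-fold higher.

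Subunits with more than 1 gene were compared as shares of their summed TPM. The a subunit, which forms the half-channels for protons and helps to place the pump in a given membrane, was spread over several genes. Atp6v0a1 rose 1.37-fold from 48.7 ± 2.75 to 63.9 ± 1.69 TPM, and Atp6v0a2 1.42-fold from 27.9 ± 0.0656 to 38.8 ± 1.11 TPM. Tcirg1, the a3 gene known from osteoclasts and secretory lysosomes, carries a symbol outside the naming pattern and was added after its values were seen. It was at 71.6, 73.3 and 69.1 TPM in IL and 52.1, 51.5 and 50.4 TPM in ILN (log2 -0.45, SE 0.037). Its share of the a subunit went from 48.1% ± 1.35 to 33.3% ± 0.239, while Atp6v0a1 went from 32.8% ± 1.52 to 41.5% ± 0.875 and became the largest. Atp6v0a2 went from 18.8% ± 0.359 to 25.2% ± 0.820. Atp6v0a4, the a gene of kidney intercalated cells, had 16, 11 and 9 reads in IL and 3, 4 and 3 in ILN, too few to be tested. Scaled to the library totals it was 3.79 times higher in IL, with an exact 95% interval of 1.84 to 8.56 for counting error only. Exons of Atp6v0a4 share 259 bases with D630045J12Rik on the same strand, at 11.3 TPM in IL and 9.76 in ILN. Whether the few reads came from that gene was not tested.

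For the e subunit, Atp6v0e2 rose 2.24-fold, from 23.0, 23.0 and 22.4 TPM to 48.6, 52.3 and 49.3 TPM, and Atp6v0e 1.13-fold, from 214.5 ± 2.34 to 239.3 ± 8.79 TPM. The share of Atp6v0e2 went from 9.61% ± 0.0513 to 17.3% ± 0.427. For the G subunit, the share of Atp6v1g2 went from 1.95% ± 0.117 to 0.517% ± 0.0268. The other subunits were almost wholly 1 gene in both groups. Atp6v0d2, the d gene of osteoclasts, had 2, 0 and 0 reads in IL and 12, 5 and 3 in ILN, 12 of the 20 ILN reads being in 1 library. The scaled ratio was 9.50, with an exact 95% interval of 2.31 to 83.8 for counting error only, and it made up 0.105% of the d subunit in ILN. Atp6v1b1, Atp6v1c2 and Atp6v1e2 had at most 4 reads in either group. Atp6v1fnb, a neighbour of Atp6v1f that the pattern matched by name and that is not known as a pump subunit, had 2 reads in IL and 3 in ILN.

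Regulators of lysosomal genes were mostly higher. Rragd (chromosome 4, 32982998 to 33022180), a Rag GTPase through which mTORC1 is brought to the lysosome and MiT/TFE factors are phosphorylated, was at 11.98, 13.9 and 12.7 TPM in IL and 46.4, 45.1 and 44.98 TPM in ILN, 3.62-fold higher (log2 1.86, SE 0.041). Its paralog Rragc was 1.84-fold higher, from 88.1 ± 1.94 to 158.9 ± 4.12 TPM. Flcn, folliculin, the GTPase activator for both, was at 45.4, 44.8 and 44.3 TPM against 95.6, 92.0 and 94.3 TPM, 2.11-fold higher, and its partner Fnip1 1.39-fold higher, from 24.5 ± 0.933 to 33.2 ± 1.11 TPM. The MiT/TFE genes themselves were divided. Tfe3, by far the most abundant, went from 135.1, 140.7 and 142.2 TPM to 191.8, 192.3 and 188.8 TPM (1.38-fold higher). Mitf was at 2.56 ± 0.154 and 3.93 ± 0.320 TPM (1.57-fold higher). Tfeb was at 3.75, 4.01 and 4.18 TPM in IL and 2.81, 2.92 and 2.84 TPM in ILN, 1.37-fold lower (SE 0.136 on the log2 scale). RNA levels do not show where these factors were in the cell.

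Summed over all 76 genes, lysosomal transcripts took 8961 ± 104 TPM in IL and 13848 ± 60.03 TPM in ILN, or 0.896% and 1.38% of all TPM. The sum rose 1.62-fold for membrane proteins, from 2353 ± 50.6 to 3812 ± 24.1 TPM, and 1.77-fold for the pump, from 2499 ± 10.4 to 4432 ± 49.9 TPM. Hydrolases rose 1.38-fold in sum, from 2452 ± 13.4 to 3393 ± 16.5 TPM, although 12 of them fell, since Ctsb and other abundant genes rose. The protease sum was 1.49-fold higher and the glycan sum 1.34-fold. The lipid hydrolases summed to 318.3 ± 5.03 TPM in IL and 323.4 ± 0.755 TPM in ILN, a ratio of 1.02 that became 0.580 without Asah1. The helper proteins rose 1.25-fold with Psap and 1.003-fold without it.

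**Figure D4:**
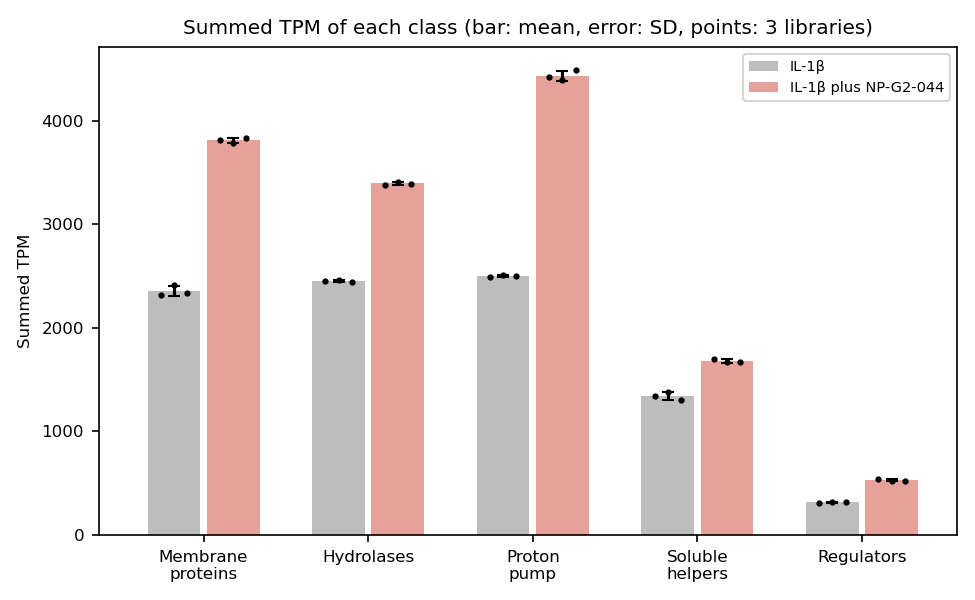
Summed TPM of the hydrolases, membrane proteins, proton pump, helper proteins and regulators in the IL and ILN groups, with bars from 0 at the group means, error bars of 1 SD and a point for each of the 3 libraries. The pump sum was slightly above the hydrolase sum in IL, at 2499 against 2452 TPM, and well above it in ILN, at 4432 against 3393 TPM.

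A second list held 54 other lysosomal genes, of which 50 were in the table and 45 could be tested. Of these 33 were higher, 6 lower and 6 not called, against 40.2% higher and 39.8% lower over all genes tested. With a log2 fold change of at least 1 in size also required, 7 were higher and 0 lower, against 6.48% and 10.1%. The median log2 fold change was 0.37. Mcoln3, a relative of Mcoln1, had the largest change at 2.73, on only 4, 3 and 0 reads in IL and 20, 14 and 17 in ILN. Scpep1, a serine carboxypeptidase related to Ctsa, went from 268.4, 279.1 and 271.4 TPM to 933.9, 920.4 and 953.4 TPM (log2 1.81). Fnip2, the other folliculin partner, went from 12.5 ± 0.613 to 41.0 ± 0.992 TPM (log2 1.76). The largest falls were Gm2a, the ganglioside activator protein, at -0.81, the phospholipase gene Pla2g15 at -0.56 and the hyaluronidase gene Hyal2 at -0.43.

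Of 10 genes for assembly factors and regulators of the pump, 6 were higher and 4 lower, against 40.2% and 39.8% of all genes tested, with a median log2 fold change of 0.11. Dmxl2 and Wdr7, which form the rabconnectin complex that reassembles V1 with V0, were higher, Dmxl2 at a log2 fold change of 1.01 and Wdr7 going from 7.43 ± 0.481 to 12.3 ± 0.0551 TPM. Rogdi, a further part of that complex, was lower, from 21.0 ± 0.739 to 14.5 ± 1.65 TPM (log2 -0.47). Tmem199, needed for assembly of V0, rose by 0.99, and Ccdc115, Dmxl1 and Tm9sf4 rose by 0.26, 0.12 and 0.086. Vma21, Tmem9 and Ncoa7 were lower, at log2 fold changes of -0.16, -0.36 and -0.42.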

How the data were processed

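The authors' deposited table gives, per the file headers, read counts, TPM and FPKM per gene for each library, with the authors' group means. The FPKM values and means were not used. About 10.17% to 11.06% of the counts per library are not whole, so they were assumed to be estimated counts and were rounded. TPM, as deposited, is scaled to gene length and library size, and is used for levels. The submitters' processing notes list cutadapt, HISAT2 2.0, StringTie and mm10, and no source used here names the tool that made the estimated counts. Libraries were prepared with an Illumina TruSeq RNA kit. By the study's methods, BGI extracted the RNA, did the sequencing and quantified the final libraries.

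Genes were kept by edgeR's filterByExpr (minimum count 10), leaving 11983 of 16880. edgeR 4.0.16 in R 4.3.3 was used with TMM scaling (factors 0.9975 to 1.002), a quasi-likelihood fit on group and Benjamini-Hochberg adjustment over all genes tested. Log2 fold changes are ILN minus IL, and a gene is said to rise, fall, be higher or be lower at an adjusted p below 0.05. Alternatives used DESeq2 1.42.0, limma 3.58.1 on log2(TPM + 1) and log2(TPM + 0.1), other filters and scalings, a replicate block and each library left out. The fit was tested on simulated counts. Libraries of a group differed by more than sampling noise (chi-square per degree of freedom 1.54 to 2.39), so none was counted as the same library sequenced again. The check cannot tell separate cultures from separate preparations of the same culture.

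The members, lists and tests were chosen with earlier results of these data known. By rule the text names, in each class, the 3 largest rises and 3 largest falls among the genes called, the most abundant gene, all regulators, all subunit isoforms and every member not called or not tested. Other members were named after their values were seen. Gene positions and exon overlaps come from the GRCm38 annotation (GENCODE vM21). Exons of some other members also overlap those of neighbouring genes, and not every overlap is given.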

Additional observations from a re-analysis of the deposited data

How the results depend on the processing

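The counts of members, 50 higher and 15 lower, were 50 and 15 with DESeq2 size factors or library size alone, 49 and 16 with DESeq2's own test, 48 and 15 with limma on log2(TPM + 1), 49 and 15 on log2(TPM + 0.1), 51 and 16 without a filter, and 50 and 11 with a minimum of 10 CPM in 3 libraries. Members tested numbered 67 in the main fit, 74 with DESeq2's own test, 76 without a filter and 62 with the CPM filter. That filter left Ctsf, Ctsh, Tfeb and Atp6v1g2, all lower in the main fit, untested. Members past both cutoffs and lower numbered 1 instead of 2 with limma on log2(TPM + 1) and with the CPM filter, and 3 with DESeq2's own test and without a filter, where 16 instead of 15 were higher. Over all genes tested, 1987 were past both cutoffs, against 1316 with limma on log2(TPM + 1) and 1164 with the CPM filter, which tested 9447 genes. With limma on log2(TPM + 1) the median log2 fold change of hydrolases was 0.113, the median log2 fold change of membrane proteins 0.738 and the median log2 fold change of proton pump subunits 0.661, and with log2(TPM + 0.1) they were 0.117, 0.754 and 0.664. Without the most abundant gene of each class the ratios of summed TPM were 1.31, 1.57 and 1.86.

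Leaving out 1 library at a time, 49 to 51 members were higher and 15 to 16 lower, and 15 to 16 and 2 to 3 past both cutoffs. The medians ran from 0.136 to 0.185 for hydrolases, 0.767 to 0.783 for membrane proteins and 0.681 to 0.696 for the pump, and the change in the Tcirg1 share from -15.6 to -14.3 percentage points. The log2 fold change of Glb1 ran from -0.0706 to 0.0075 and was above 0, at 0.0054 and 0.0075, without IL replicate 1 and without ILN replicate 1, with no call in either. The log2 fold change of Cln3 passed without ILN replicate 2 (0.26, adjusted p 0.0291 from edgeR). The log2 fold change of Gla lost its call with DESeq2 (adjusted p 0.0605), limma on log2(TPM + 1) (0.0503) and without IL replicate 3 (0.0704). The log2 fold change of Smpd1 lost it with DESeq2 (0.0758), both limma scales (0.0592 and 0.0587), without IL replicate 2 (0.0642) and without ILN replicate 1 (0.068). The cause was not tested.

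Same-numbered libraries did not deviate together (correlation -0.093 to 0.026), and differently numbered ones ran from -0.107 to 0.129. With 3 libraries a group, such correlations cannot show whether the numbers pair the libraries. With a replicate block the members called were again 50 higher and 15 lower, with 15 and 2 past both cutoffs, and no member's call changed. Genes with few reads, such as Ctsh, Ctsf and the 9 members below the filter, are the least certain.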
